A study of Mus musculus with 12 samples.

Results

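The genes described here are 10 genes of the early response: the Krüppel-like factor genes *Klf2*, *Klf4* and *Klf6*, the immediate early response genes *Ier2*, *Ier3* and *Ier5*, the anti-proliferative gene *Btg2*, the proto-oncogene *Myc*, and the growth arrest and DNA damage genes *Gadd45a* and *Gadd45b*. They were chosen by symbol, and for a gene with several transcript clusters the brightest was to be used; each of the 10 had exactly 1 cluster of its own, so all 10 were measured, out of 19938 genes with a cluster of their own on the array. The arrays came from bone marrow neutrophils of wild type (C57BL/6) mice and of *Card9*-/- mice backcrossed to that background. The latter were homozygous for a *Card9* mutation present in every tissue and not only in neutrophils. Per the methods, wild type control mice were purchased, so the source of the mice goes with genotype and cannot be told apart from it. Both genotypes were placed for 4 h at a surface coated with human serum albumin, which served as the control, or on immobilized immune complexes (IC) made by adding antibody against this albumin; adherent and nonadherent cells were lysed together. Each of 3 experiments, run at independent time points, held all 4 combinations of genotype and surface, which gave 3 arrays per group and 12 in all. The study used mice of either sex that were 2 to 6 months old; how many mice stood behind an array, and their sex and exact age, are not stated in the labels or methods.

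Early response genes are transcribed within minutes of a stimulus without new protein synthesis, and their mRNAs are mostly short-lived, so that a measurement after several hours reads what is left of a first wave together with any sustained transcription. KLF proteins are zinc finger transcription factors, and KLF2 and KLF4 are known in myeloid cells as regulators of inflammatory activation. IER2 and IER5 are small nuclear proteins, and IER3 modulates survival and NF-κB and ERK signalling. BTG2 promotes mRNA deadenylation, MYC drives growth and proliferation, and the GADD45 proteins bind MTK1 (the product of *Map3k4*) and cell cycle proteins and act in stress signalling. *Gadd45b* and *Ier3* are known NF-κB target genes in other cells, and CARD9 is an adaptor that links Syk-coupled receptors to NF-κB.

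A log2 signal gives the brightness of a gene's probes on a doubling scale; since probes differ in brightness, signals are compared here only within a gene. The values were tested with limma across 28944 transcript clusters with the experiment as a block, and "passed" means a Benjamini-Hochberg adjusted p over all clusters below 0.05. Array medians were 5.70 to 5.75 in experiment 1, 5.86 to 5.93 in experiment 2 and 5.27 to 5.39 in experiment 3. *Card9* itself differed between *Card9*-/- and wild type cells by -2.52 log2 units on the control surface and by -2.27 on IC, and was lower in all 3 experiments. All 12 neutrophil markers lay above the median cluster in every group, with list means of 12.1 to 12.4 on each array. The cells were purified on a density gradient (the labels give Ly6G+ as their surface marker), and in such bulk RNA fewer cells of a type and less RNA per cell cannot be told apart.

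Among the 10 genes, *Gadd45b*, *Ier3* and *Ier5* carried the differences between the genotypes, and the 250 bases before their RefSeq transcription starts are shown because the 3 signals moved together over the arrays. Capitals mark matches, on either strand, to the letters CACGTG (an E-box), TGACG (part of a cAMP response element), CACCC (letters bound by KLF proteins) and TATAA. Each stretch is written 5′ to 3′ on the strand of its gene, from build GRCm38.p6, at chr10:80929841-80930090 (plus strand) for *Gadd45b*, chr17:35821463-35821712 (plus strand) for *Ier3* and chr1:155099637-155099886 (minus strand) for *Ier5*.
Gadd45b: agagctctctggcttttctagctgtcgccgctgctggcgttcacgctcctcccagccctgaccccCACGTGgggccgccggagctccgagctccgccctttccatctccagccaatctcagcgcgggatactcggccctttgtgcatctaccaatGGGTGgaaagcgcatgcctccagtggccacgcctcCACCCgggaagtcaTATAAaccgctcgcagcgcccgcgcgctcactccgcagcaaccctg
Ier3: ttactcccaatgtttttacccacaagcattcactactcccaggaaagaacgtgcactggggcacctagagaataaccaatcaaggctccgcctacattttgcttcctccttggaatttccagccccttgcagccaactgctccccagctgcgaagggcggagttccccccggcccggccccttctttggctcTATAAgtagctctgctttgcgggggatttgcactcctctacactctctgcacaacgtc
Ier5: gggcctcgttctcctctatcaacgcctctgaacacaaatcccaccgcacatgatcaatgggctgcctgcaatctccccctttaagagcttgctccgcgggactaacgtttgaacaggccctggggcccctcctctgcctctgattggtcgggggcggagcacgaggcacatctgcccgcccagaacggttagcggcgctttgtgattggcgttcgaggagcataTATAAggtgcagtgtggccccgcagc
TATAA stood in all 3, from position -46, -58 and -26 relative to the start, and in 5 of the 8 members found in the promoter table (*Klf2* and *Klf4*, which hold 2 matches each, were the others), against 22.8% of all 32851 promoters of the same length; these letters were added to the search after the sequences had been seen. CACGTG stood in *Gadd45b*, *Klf4* and *Klf6*, against 6.02% of all promoters. CACCC stood in *Gadd45b*, *Gadd45a* and *Klf2*, against 52.0%, and TGACG in *Btg2*, *Klf2* and *Klf4*, against 17.8%; the 2 TGACG matches of *Btg2* lie on opposite strands and overlap. The NF-κB motif was searched only in a narrow form, with C or T in each of the 3 places before its closing CC. This form stood in 5.0% of all promoters and the core of the serum response element in 1.47%, and neither had a match in these 8 windows. The *Ier3* window holds ggagttcccc, which on its other strand differs from this form only by an A in the first of these places. Wider forms were not searched, so the lack of a match does not show that an NF-κB site is absent. A match is a description of the letters only.

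*Gadd45b*, which encodes GADD45β (transcript cluster 10364950, chr10:80930091-80932204), was the member with the largest differences. Its log2 signal in wild type cells was 10.72, 11.72 and 10.83 on the control surface in experiments 1, 2 and 3, and 11.98, 12.15 and 11.66 on IC. In *Card9*-/- cells it was 9.57, 10.76 and 10.20 on the control surface and 9.85, 10.75 and 10.43 on IC. On IC every *Card9*-/- array lay below every wild type array, and on the control surface the *Card9*-/- array of experiment 2 lay above the wild type array of experiment 1, so that the groups overlapped. The *Card9*-/- signal on IC was also below the wild type signal on the control surface in each experiment, by a mean log2 difference of -0.74 ± 0.31 (SD, n = 3 experiments), which was not tested.

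On IC, *Gadd45b* was lower in *Card9*-/- cells, with a log2 difference from the wild type of -1.59 (standard error 0.18, limma adjusted p = 0.00624, n = 3 experiments), which is 0.333-fold of the wild type signal (95% interval 0.252 to 0.441). It was lower in 3 of 3 experiments, by -2.13, -1.40 and -1.23. It was the only member that passed in this comparison, in which 0.162% of all clusters passed in either direction and 0.117% as lower. On the control surface the mean was -0.91 (standard error 0.18, limma adjusted p = 0.360, n = 3 experiments), and the 3 experiments gave -1.15, -0.96 and -0.63; 0.038% of all clusters and none of the members passed there, while 3 of the 10 members, *Gadd45b*, *Ier3* and *Ier5*, and 4.64% of all clusters had an unadjusted p under 0.05. The call on IC was lost without experiment 2 (adjusted p = 0.202, log2 difference -1.68) and when the arrays were not paired by experiment (adjusted p = 1.00); over all alternatives its adjusted p ranged from 0.000758 to 1.00 and its difference from -1.77 to -1.32.

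*Ier3* (transcript cluster 10444890, chr17:35821713-35822911), whose product modulates cell survival, had log2 signals of 7.59, 8.37 and 8.13 on the control surface and 8.50, 8.57 and 8.27 on IC in wild type cells. In *Card9*-/- cells they were 7.11, 7.83 and 7.60 on the control surface and 7.63, 7.71 and 7.60 on IC. The 3 *Card9*-/- arrays on IC all lay below the 3 wild type arrays on IC, and the groups overlapped on the control surface. The differences between the genotypes were nearly equal over the experiments, at -0.48, -0.54 and -0.54 on the control surface and -0.87, -0.86 and -0.68 on IC.

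*Ier5* (transcript cluster 10358978, chr1:155096367-155099636), whose product is known as a regulator of heat shock factor HSF1, had signals of 8.61, 9.50 and 9.14 on the control surface and 9.26, 9.60 and 9.17 on IC in wild type cells. In *Card9*-/- cells the signals were 8.34, 8.94 and 8.49 on the control surface and 8.65, 8.66 and 8.41 on IC. As for *Ier3*, the genotypes did not overlap on IC and overlapped on the control surface. All *Card9*-/- arrays lay below all wild type arrays on IC for 3 of the 10 members (*Gadd45b*, *Ier3* and *Ier5*) and for 1.03% of all clusters, and on the control surface for none of the members and 0.795% of all clusters. The mean log2 differences between the genotypes were -0.49 on the control surface and -0.77 on IC.

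On IC neither gene passed on its own (limma adjusted p = 0.0879 for *Ier3* and 0.0842 for *Ier5*, n = 3 experiments). Averaged over both surfaces, 3 of the 10 members passed, all as lower in *Card9*-/- cells. In this average 0.415% of all clusters passed as lower and 0.529% in either direction. It uses 6 pairs of arrays per gene, but these come from n = 3 experiments. Beyond the block, the model treats both pairs of an experiment as independent, although they share that experiment. The averaged log2 differences were -1.25 for *Gadd45b* (standard error 0.13, adjusted p = 0.00213), -0.66 for *Ier3* (0.11, adjusted p = 0.0331) and -0.63 for *Ier5* (0.11, adjusted p = 0.0331). Each of the 3 genes was lower in all 6 pairs of arrays, as were 4.28% of all clusters. Without experiment 2 none of the 3 passed this test, with averaged differences of -1.28, -0.64 and -0.57, nor did any pass when the arrays were not paired by experiment; without experiment 3 *Gadd45b* alone passed (-1.41), and without experiment 1 *Gadd45b* (-1.05) and *Ier5* (-0.73).

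Markers of other cells were read beside these differences. Of 9 measured B cell markers, all 9 had a difference above 0 on IC (*Card9*-/- against wild type, median 0.65 log2 units), and 0 passed; their summed linear signal ranged from 368 to 3505 in wild type and from 394 to 5086 in *Card9*-/- cells on IC. All 10 markers of eosinophils, basophils and mast cells were above 0 as well (median 0.42, 0 passed), with sums of 2459 to 4757 and of 3363 to 8824. Of 9 monocyte and macrophage markers, 7 were below 0 (median -0.05, 0 passed), with sums of 1009 to 4213 and of 1092 to 2400. Among them *Ms4a7* (-0.55) and *Csf1r* (-0.70) were below 0 and *Ccr2* (0.34) was above 0 in all 3 experiments, while *Adgre1*, which encodes F4/80, had -2.00, -0.94 and 0.17 in the experiments. The mean signals of *Ms4a7* (3.97) and *Ccr2* (5.08) were low, under the lowest array median of 5.27, and that of *Csf1r* was 9.01. On IC 5 of the 9 monocyte and macrophage markers lay above the median cluster in wild type and 4 in *Card9*-/- cells. Markers of T and NK cells (9 measured, median 0.10), of erythroid cells and platelets (7 measured, 0.03) and of immature marrow cells (10 measured, 0.02) had no member that passed either. Nor had the neutrophil markers, of which 11 of 12 were above 0 on IC (median 0.09). On the control surface 1 of the 12 neutrophil markers was above 0 and 11 were below (median -0.07). There 8 of 9 B cell markers (median 0.38) and 9 of 10 markers of eosinophils, basophils and mast cells (0.32) were above 0. Of the monocyte and macrophage markers 6 were below 0 there and 3 above (-0.09). The part of these cell types in the differences of the 3 genes was not tested.

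**Figure D1:**
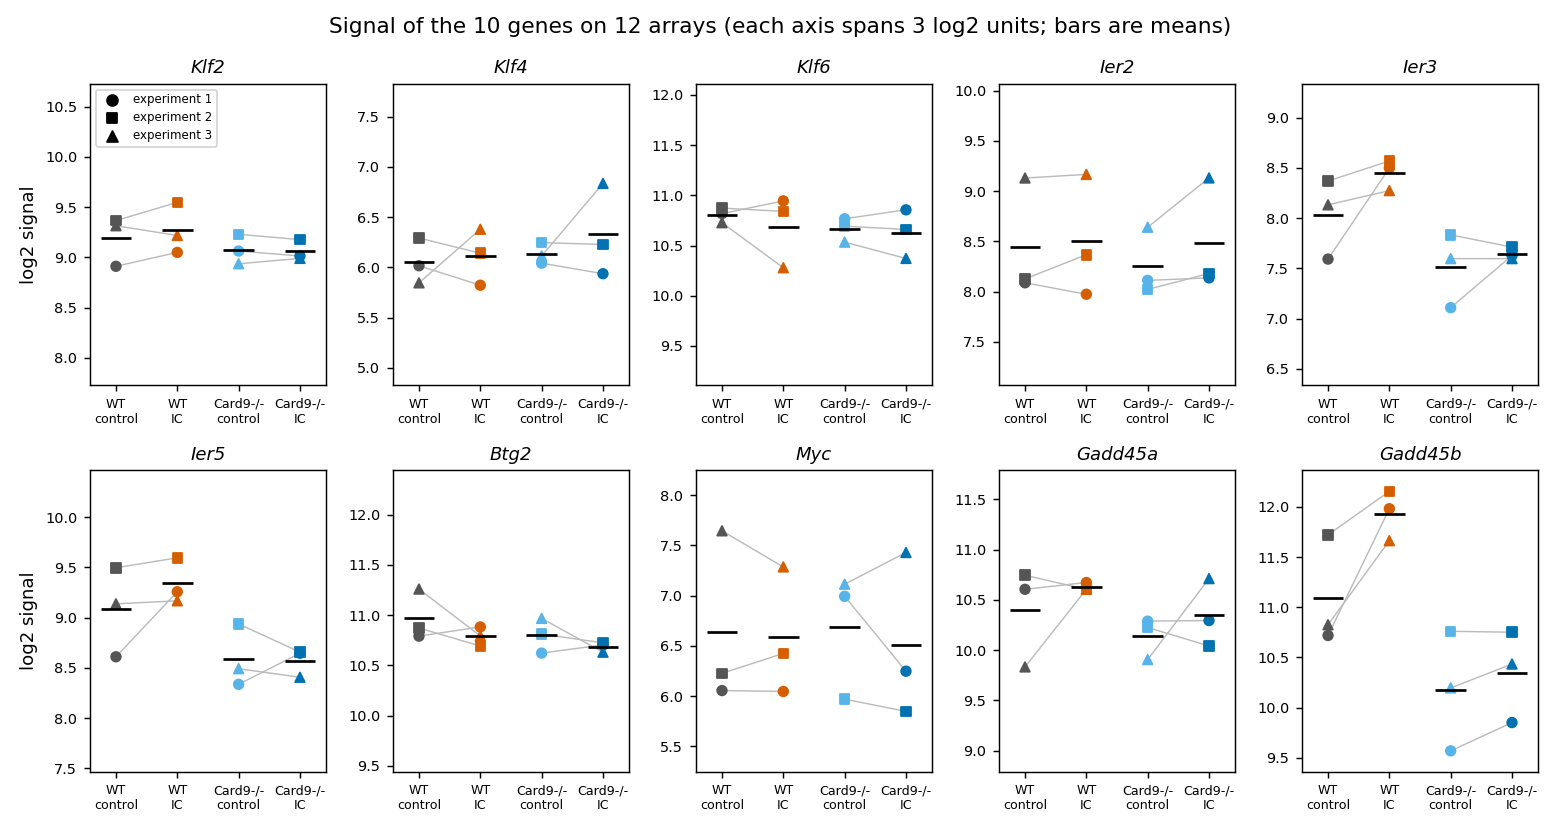
Log2 signal (vertical axes, each spanning 3 log2 units) of the 10 genes in the 4 groups (horizontal axes; WT, wild type). Symbols are experiments, grey lines join the 2 surfaces of a genotype within an experiment and black bars are group means; the *Gadd45b* arrays on IC lie at 11.66 to 12.15 in wild type and at 9.85 to 10.75 in *Card9*-/- cells.

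The other 7 members had smaller differences between the genotypes, and none of them passed on either surface or in the average. Their averaged log2 differences lay between -0.27 for *Gadd45a* and 0.15 for *Klf4*. On IC, the 95% intervals of *Klf2* (-0.47 to 0.04), *Klf6* (-0.32 to 0.20), *Ier2* (-0.30 to 0.26) and *Btg2* (-0.38 to 0.17) were the narrowest of the 7. Those of *Klf4* (-0.18 to 0.62), *Gadd45a* (-0.76 to 0.21) and *Myc* (-0.61 to 0.46) were wider. Over the 10 members, 9 were below 0 on IC, where 53.6% of all clusters were, with a median of -0.16 against -0.01 over all clusters tested. On the control surface 8 were below 0 against 42.6% of all clusters, and 5 (*Klf6*, *Ier3*, *Ier5*, *Btg2* and *Gadd45b*) were lower in all 3 experiments against 12.8%. On IC 4 (*Klf2*, *Ier3*, *Ier5* and *Gadd45b*) were lower in all 3 experiments against 15.4%, and in the average 9 were below 0 against 46.5%.

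**Figure D2:**
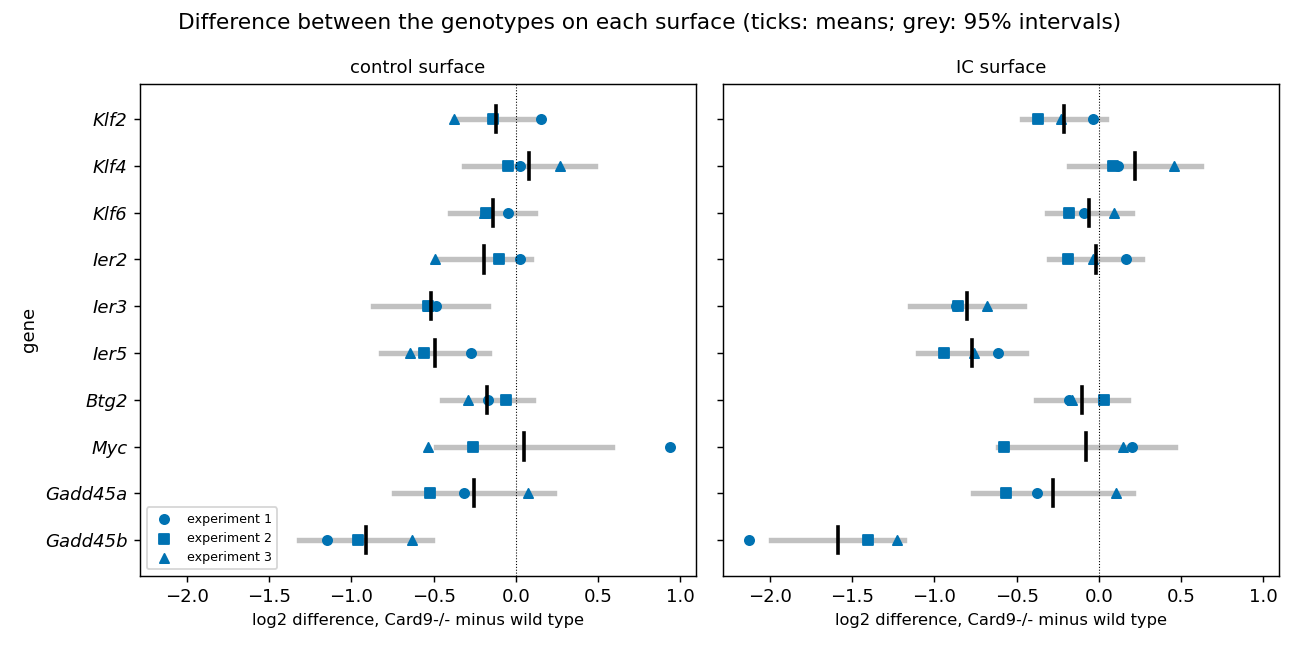
Genotype difference in log2 units, *Card9*-/- minus wild type (horizontal axes), for each gene, on the control surface (left) and on IC (right). Symbols are experiments, black ticks are means and grey bars are 95% intervals from limma; *Gadd45b* has the lowest mean on both surfaces, -0.91 and -1.59.

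The response to IC, that is, the difference between the surfaces within a genotype, was largest for *Gadd45b* in wild type cells, at 0.84 log2 units (standard error 0.18), with 1.26, 0.43 and 0.84 in the 3 experiments. This is 1.80-fold of the control (95% interval 1.36 to 2.38). For *Ier3* it was 0.42 and for *Ier5* 0.26, and both rested largely on experiment 1, with 0.91, 0.20 and 0.14 for *Ier3* and 0.65, 0.10 and 0.03 for *Ier5*; without experiment 1 the means were 0.17 and 0.06. These 3 members were higher on IC in all 3 wild type experiments, as were 18.8% of all clusters. In limma 0 of the 10 members and 0% of all clusters passed, and 2 of the 10 members, *Gadd45b* and *Ier3*, had an unadjusted p under 0.05, against 9.59% of all clusters (*Gadd45b* adjusted p = 0.299, *Ier3* adjusted p = 0.467).

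In *Card9*-/- cells the response of *Gadd45b* was 0.17 (0.28, -0.01 and 0.24 in the experiments), that of *Ier3* 0.13 and that of *Ier5* -0.02. For *Ier3* the experiments gave 0.52, -0.12 and -0.00, with a mean of -0.061 without experiment 1. For *Ier5* they gave 0.31, -0.28 and -0.08, with a mean of 0.11 without experiment 2. Again 0 members and 0% of all clusters passed in limma, and 0 of the 10 members had an unadjusted p under 0.05, against 3.01% of all clusters. *Ier2* was the 1 member that was higher on IC in all 3 *Card9*-/- experiments, as were 11.5% of all clusters; its mean of 0.22 came from 0.03, 0.16 and 0.49, and was 0.092 without experiment 3. For *Gadd45b* the response was smaller in *Card9*-/- than in wild type cells by -0.67 log2 units (standard error 0.26, 95% interval -1.25 to -0.10), and by -0.98, -0.44 and -0.60 in the experiments, so that it was smaller in 3 of 3. This difference of responses did not pass in limma (adjusted p = 0.999). It was the only member with an unadjusted p under 0.05 there, against 3.68% of all clusters, of which 0% passed. For *Ier3* and *Ier5* the difference of responses was -0.28 each and below 0 in 3 of 3 experiments, with intervals that included 0 (-0.77 to 0.21 and -0.74 to 0.19).

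The surfaces differed in opposite ways over the experiments for several other members. *Gadd45a* (transcript cluster 10545130, chr6:67035096-67037407), a p53-responsive relative of *Gadd45b*, had signals of 10.61, 10.75 and 9.83 on the control surface and 10.67, 10.61 and 10.61 on IC in wild type cells. In *Card9*-/- cells they were 10.29, 10.23 and 9.91 on the control surface and 10.29, 10.04 and 10.71 on IC. The control arrays of experiment 3 were the lowest in both genotypes, and the responses in that experiment were 0.77 (wild type) and 0.81 (*Card9*-/-), against -0.18 to 0.07 in the other two. *Klf4* (transcript cluster 10513008, chr4:55527137-55532475), a factor of monocyte differentiation and macrophage activation, also had its highest responses in experiment 3, with values of 0.53 and 0.72 in experiment 3 and of -0.19 to -0.02 in the others; its signal was 6.84 on the *Card9*-/- IC array of experiment 3 and 5.82 to 6.38 on the other arrays. The mean responses of *Gadd45a* (0.23 and 0.21 in wild type and *Card9*-/- cells) and of *Klf4* (0.06 and 0.20) turned below 0 without experiment 3.

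*Btg2* (transcript cluster 10357875, chr1:134074865-134079155) and *Klf6* (transcript cluster 10403352, chr13:5861489-5870393), a KLF gene known to be induced in activated macrophages, went the other way in experiment 3. *Btg2* signals in wild type cells were 10.79, 10.87 and 11.26 on the control surface and 10.88, 10.69 and 10.79 on IC, and in *Card9*-/- cells 10.62, 10.81 and 10.97 on the control surface and 10.70, 10.72 and 10.63 on IC. Its response was 0.09, -0.18 and -0.47 in wild type and 0.08, -0.09 and -0.34 in *Card9*-/- cells. *Klf6* lay at 10.28 to 10.94 over the 12 arrays, and its response was 0.13, -0.03 and -0.45 in wild type and 0.09, -0.03 and -0.16 in *Card9*-/- cells. Neither gene passed in any comparison. Over all clusters the responses were also more spread in experiment 3 (SD 0.40 for the wild type, 0.34 for *Card9*-/-) than in experiment 1 (0.26 and 0.22) or experiment 2 (0.24 and 0.17), and the correlation between the responses of the genotypes across clusters, which are not independent replicates, was 0.391 in experiment 3 and 0.132 and 0.155 in the other two.

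**Figure D3:**
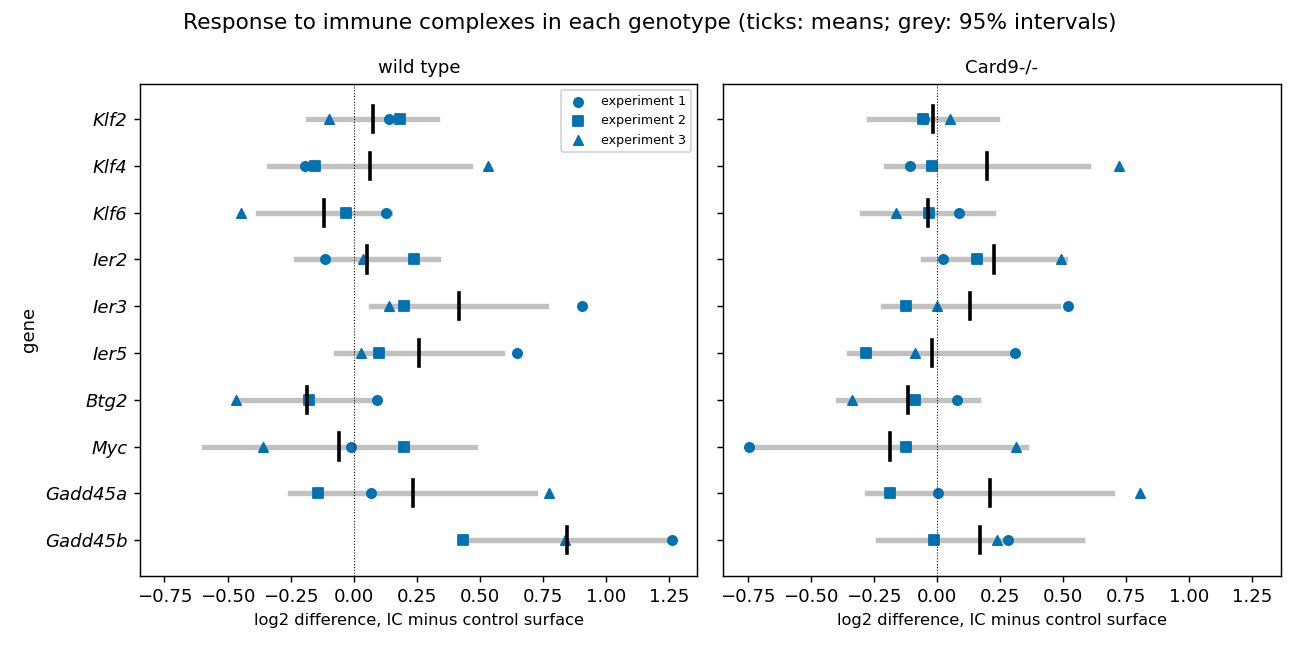
Response in log2 units, IC minus control (horizontal axes), for each gene, in wild type (left) and *Card9*-/- cells (right). Symbols are experiments, black ticks are means and grey bars are 95% intervals from limma; the experiment 3 symbols of *Klf4* and *Gadd45a* lie at 0.53 to 0.81, apart from those of the other experiments, in both genotypes.

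*Klf2* (transcript cluster 10572800, chr8:72319062-72321654), which restrains myeloid activation, differed little between the surfaces. Its signals in wild type cells were 8.91, 9.37 and 9.32 on the control surface and 9.05, 9.55 and 9.22 on IC, and in *Card9*-/- cells 9.06, 9.23 and 8.94 on the control surface and 9.01, 9.18 and 8.99 on IC. The response was 0.07 in wild type cells (95% interval -0.18 to 0.33) and -0.02 in *Card9*-/- cells (-0.27 to 0.24), and the groups overlapped throughout. On IC *Klf2* was lower in *Card9*-/- cells in 3 of 3 experiments, by -0.04, -0.37 and -0.23, but the mean of -0.21 did not pass (limma adjusted p = 0.637).

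*Ier2* and *Myc* varied with the experiment more than with genotype or surface. *Ier2* (transcript cluster 10580183, chr8:84661331-84662852) had signals of 7.97 to 8.37 on the 8 arrays of experiments 1 and 2, and of 9.13, 9.17, 8.64 and 9.13 in experiment 3 (control and IC surface of wild type cells, then of *Card9*-/- cells). *Myc* (transcript cluster 10424400, chr15:61985341-61990361) lay at 7.65, 7.29, 7.11 and 7.43 on the same 4 arrays, at 5.85 to 6.43 in experiment 2, and at 6.06, 6.05, 6.99 and 6.25 in experiment 1. The *Card9*-/- control array of experiment 1 was thus higher for *Myc* than the other 3 arrays of that experiment, and the genotype difference on the control surface was 0.94 in experiment 1 and -0.26 and -0.53 in experiments 2 and 3. No comparison of *Ier2* or *Myc* passed.

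The sums of squares over the 12 arrays were split to describe these patterns. Genotype held 61.2% of the sum for *Gadd45b*, 58.4% for *Ier3* and 58.9% for *Ier5*, and at most 20.3% (*Klf2*) for the other 7. Experiment held 88.9% for *Ier2*, 78.9% for *Myc*, 64.4% for *Klf6* and 52.4% for *Klf2*, and 7.38% to 31.0% for the other 6. The array medians also differed between the experiments and how the arrays were normalized is not stated, so a share that went with experiment cannot be told apart from a difference in normalization. Surface held at most 19.9% (*Btg2*), and it held 10.1% for *Gadd45b* and for *Ier3*.

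**Figure D4:**
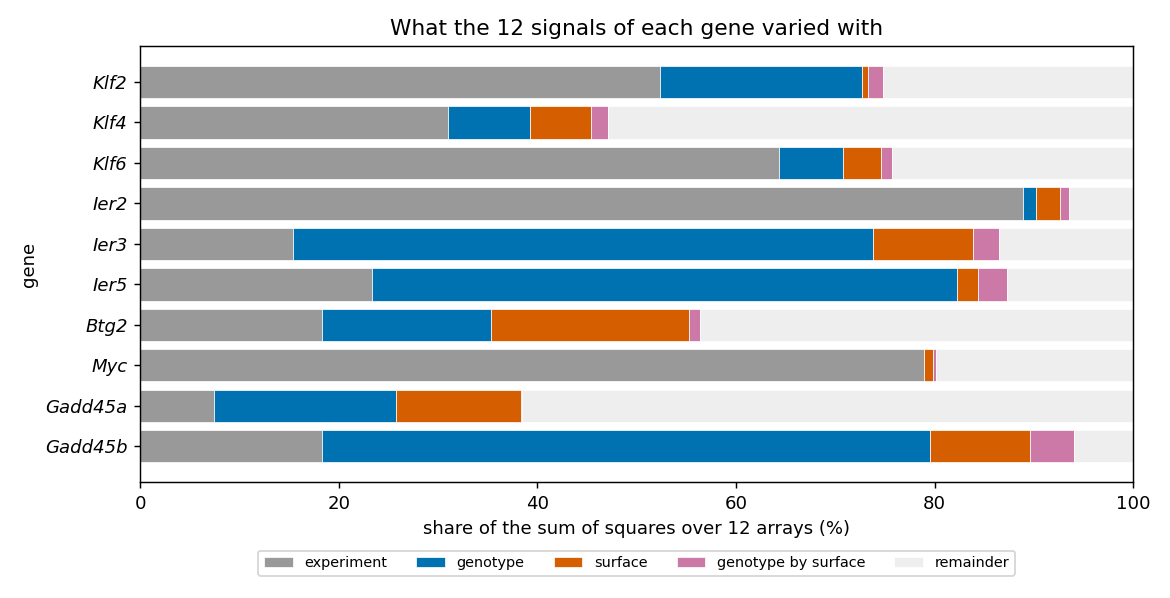
Share of the sum of squares over 12 arrays (horizontal axis, percent) that went with experiment, genotype, surface, genotype by surface and the remainder, for each gene. The genotype part is 61.2% for *Gadd45b*, 58.4% for *Ier3* and 58.9% for *Ier5*, and the experiment part is 88.9% for *Ier2*.

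After the mean of each experiment was subtracted, *Ier3* and *Ier5* had a Pearson correlation of 0.96 over the 12 arrays, *Ier3* and *Gadd45b* of 0.94, and *Ier5* and *Gadd45b* of 0.88. *Klf6* and *Btg2* had 0.80, and *Klf4* and *Btg2* -0.85. These are descriptions over arrays that share genotypes and surfaces. Among 10557 single-gene clusters above the median signal, searched without a test, those most like *Gadd45b* were *Nfkbid*, which encodes the nuclear IκB protein IκBNS (0.985), *Ralgds* (0.978) and *Best1* (0.977). Those most like *Ier3* were *Clec4e*, which encodes the receptor Mincle (0.987), *Slc15a3* (0.985) and *Tnfaip2*, a TNF-inducible gene (0.984), and those most like *Ier5* were *Slc2a6*, which encodes a glucose transporter family member (0.979), *Dgat2* (0.976) and *Itpkc* (0.966). Those most like *Klf6* were *Mdm2* (0.974), *Aplp2* (0.973) and *Wbp4* (0.969).

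Relatives of the members and other gene lists were read in the same comparisons. At most 0.529% of all clusters passed in any comparison, and 0% in the IC response of either genotype. A count of 0 passing in a list this short therefore says little about the list, here and for the lists that follow. Of 14 other KLF genes measured, 0 passed in any comparison. Among them *Klf10* and *Klf11*, which encode TGF-β-inducible early factors, were higher on IC in 3 of 3 experiments of each genotype without passing, at 0.54 and 0.62 log2 units in the wild type, against 0.53 and 0.37 in *Card9*-/- cells. Of 6 measured relatives of BTG, GADD45 and IER genes, 0 passed; *Gadd45g* had an averaged genotype difference of -0.64, with -1.26, -0.53 and -0.13 in the experiments (adjusted p = 0.232). Of 9 measured GADD45 partners, 0 passed, and *Map2k3*, a kinase upstream of p38, had -0.39 (adjusted p = 0.114, lower in 3 of 3).

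Of 12 measured genes of the MYC network, 0 passed, and *Mxd1*, which encodes a MAX partner that opposes MYC, had -0.35 averaged over surfaces, with every experiment below 0 (adjusted p = 0.207). Of 15 MYC-responsive growth genes, 0 passed. On the control surface 12 were above 0 for *Card9*-/- against wild type (median 0.13 against 0.03 over all clusters). There 42.6% of all clusters were below 0. On IC 14 were above 0 (median 0.07 against -0.01), where 53.6% of all clusters were below 0. The difference of *Npm1*, which encodes nucleophosmin, was 0.52 on IC (limma adjusted p = 0.182). Of 9 measured targets of KLF2 and KLF4 in leukocytes, 0 passed in any comparison, with a median of 0.04 in the average over surfaces.

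Of 12 measured p53-responsive genes, 2 passed as lower in the average over surfaces: *Plk2*, which encodes a polo-like kinase, with -1.40 (adjusted p = 0.0414; -1.76, -1.95 and -0.50 in the experiments), and *Fas*, which encodes a death receptor, with -0.67 (adjusted p = 0.0431; -0.51, -0.78 and -0.72). In the same average 0.415% of all clusters passed as lower. The list median was -0.19, against 0.01 over all clusters, and 7 of the 12 were below 0, against 46.5% of all clusters. Of 27 other immediate early genes, 0 passed in any comparison, with 21 above 0 in wild type cells on IC and 22 in *Card9*-/- cells (medians 0.37 and 0.31, against 0.04 and -0.01 over all clusters). The difference of responses between the genotypes was above 0 for 13 and below 0 for 14 of them (median -0.08 against -0.03 over all clusters). On the control surface 22 of the 27 were below 0 for *Card9*-/- against wild type (median -0.22), where 42.6% of all clusters were. On IC 23 of the 27 were below 0 (median -0.27), where 53.6% of all clusters were. Among them *Dusp2*, which encodes a MAPK phosphatase, had -0.96 and *Maff*, a small Maf gene, -1.06 (limma adjusted p = 0.0724 and 0.0946). The average response over both genotypes gave 0 members and 0.0104% of all clusters passing in limma, with 2 members, *Gadd45b* (0.51) and *Ier3* (0.27), and 9.01% of all clusters at an unadjusted p under 0.05. The *Ier3* value was 0.71, 0.04 and 0.07 in the experiments, and 0.055 without experiment 1.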

How the data were processed

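RNA of bone marrow neutrophils was read with Affymetrix mouse gene arrays, whose probe sets each represent a transcript cluster. The authors deposited log2 signals of 35556 rows for 12 arrays; their summarization, background correction and normalization are not given in the sources available for this work. The 6612 rows with the lowest identifiers, none of which has a gene in the platform annotation, stayed out, and 28944 clusters were tested without a filter or further normalization. Symbols came from the platform annotation, in which 21789 clusters name 1 gene, 1621 several and 5534 none; 476 clusters repeat the values of another. All 4 groups entered 1 limma model (limma 3.58.1, R 4.3.3) with the experiment as a fixed block (6 residual and 5.40 prior degrees of freedom). Tests were two-sided, and p-values of each comparison were adjusted (Benjamini-Hochberg) across the clusters tested. Folds are powers of 2 of these differences. Per the labels and methods, each experiment was a separate time point that held all 4 groups; deviations from the group means correlated at 0.67 to 0.87 for arrays of the same experiment and at -0.73 to 0.36 for others. Nothing says whether the mice of an experiment were pooled, so p-values measure how group differences varied over these experiments, not over mice. The block takes out shifts shared by the arrays of an experiment, and the variance is shared over the 4 groups and moderated across clusters. The procedure was also run on simulated data with planted shifts and independent noise, as a check of the procedure only and not of the results given here. The precision is limited by the number of arrays.

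All 10 members and, from each gene list, those past the threshold or with the smallest p and the same direction in all 3 experiments could be named. The marker *Adgre1* was named outside this rule. Genes most alike were the 3 with the highest correlation after subtracting experiment means. The members and lists were chosen with earlier results of these data known. Lists were described by counts and medians. Promoter sequences are RefSeq entries of build GRCm38.p6; 8 of the 10 members matched by symbol. Alternatives were no block, a random block, quantile normalization, median centring, a filter on dim clusters, limma-trend, only the arrays compared and leaving out each experiment. Python 3.11.15 with pandas 2.3.3, numpy 2.4.6 and matplotlib 3.10.9 was used for tables and figures.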

Additional observations from a re-analysis of the deposited data

How the results depend on the processing

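The log2 differences of the 10 genes were refitted under each alternative. On IC 1 member, *Gadd45b*, passed between the genotypes; the count was 0 with no replicate block and 3 (*Gadd45b*, *Ier3* and *Ier5*) with the experiment as a random replicate block and when only arrays of the 2 groups compared were fitted, and it ranged from 0 to 1 when an experiment was left out. In the average over surfaces 3 members passed, against 0 with no replicate block and 0 to 2 when an experiment was left out, 0 without experiment 2. Every genotype difference of *Gadd45b*, *Ier3* and *Ier5* kept its sign in all alternatives run. Counts of 0 members in the other 5 comparisons stayed at 0 in all alternatives run. This says little about the members, because few or no clusters of any kind passed there. For the IC response in *Card9*-/- cells and the difference of responses, 0 clusters passed in every alternative run. The highest counts over all clusters were 51 for the IC response in wild type cells (without experiment 1), 24 for the averaged response (without experiment 3) and 12 for the genotypes on the control surface (random block). Small differences changed sign, none of which passed. With median centring these were *Ier2* (IC response in wild type, -0.00074; genotypes on IC, 0.0023), *Klf2* and *Ier5* (IC response in *Card9*-/- cells, 0.0051 and 0.0027), *Gadd45a* (difference of responses, 0.052) and *Myc* (genotypes on the control surface, -0.0043). With quantile normalization they were *Klf2* (IC response in *Card9*-/- cells, 0.012) and *Ier2* (genotypes on IC, 0.00064). When an experiment was left out, 7 such differences changed sign without experiment 1, 7 without experiment 2 and 15 without experiment 3. For the IC response in wild type cells the values then ranged from -0.17 to 0.19 for *Klf4*, from -0.24 to 0.047 for *Klf6*, from -0.039 to 0.14 for *Ier2*, from -0.18 to 0.094 for *Myc* and from -0.037 to 0.42 for *Gadd45a*. For the response in *Card9*-/- cells they ranged from -0.051 to 0.0022 for *Klf2*, from -0.061 to 0.35 for *Klf4*, from -0.097 to 0.028 for *Klf6*, from -0.061 to 0.26 for *Ier3*, from -0.18 to 0.11 for *Ier5*, from -0.43 to 0.097 for *Myc* and from -0.089 to 0.41 for *Gadd45a*. For the difference of responses they ranged from -0.019 to 0.14 for *Klf6* and from -0.53 to 0.18 for *Myc*. For the genotypes on the control surface they ranged from -0.26 to 0.0079 for *Klf2*, from -0.010 to 0.15 for *Klf4* and from -0.39 to 0.34 for *Myc*. For the genotypes on IC they ranged from -0.13 to 0.0019 for *Klf6*, from -0.11 to 0.064 for *Ier2* and from -0.22 to 0.17 for *Myc*. For the averaged response they ranged from -0.12 to 0.27 for *Klf4*, from -0.17 to 0.038 for *Klf6*, from -0.059 to 0.23 for *Ier5*, from -0.20 to 0.0083 for *Myc* and from -0.063 to 0.41 for *Gadd45a*. For the averaged genotype difference they ranged from -0.31 to 0.19 for *Myc*. The other transcript clusters of a gene could not be tried, because each member has 1. Signals differ in brightness between genes, no detection call was used, and small differences lie within the spread of 3 experiments.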
